A study of Mus musculus with 8 samples.

Results

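Neutrophils made up 396 of the 53528 single cells profiled from Hepa1-6 tumours, a share of 0.740% (95% exact binomial interval 0.669 to 0.816). Hepa1-6 is a mouse hepatoma cell line that grows as a tumour in mice. The neutrophils were chosen by their own transcripts: a mean deposited value of at least 1.2 over S100a8, S100a9, Csf3r, Cxcr2, Retnlg and G0s2, a mean under 0.5 for the T cell genes Cd3g and Trbc2, and a mean under 0.8 for the macrophage complement genes C1qa, C1qb and C1qc. Values of the table are read as natural logs, which could be checked only in set 1 of the sets of cells described below. In the other sets some values fall below 0 through a step that is not recorded. These 11 genes define the cells, so their values describe the choice and support nothing. Every gene compared below was measured in the same cells that the rule picked, and all differences are descriptions without a p-value.

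The study sequenced tumours in 4 groups: WT Hepa1-6 tumours in animals given PBS into the peritoneum, WT tumours in animals given PD1 antibody by the same route, and tumours with reduced or lost Soat1 under each of these treatments. Sample titles write Soat1KO for the edited tumours, the genotype field writes Soat1 knockdown, and the number of clones behind them is not given in the sources used here. The 4 groups share the Hepa1-6 line and the injection route, and the age and strain of the animals are not given. The cell names end in a number that divides the cells into 6 sets, and nothing ties these sets to the 4 groups, so the sets are treated as unassigned samples and neither Soat1 editing nor PD1 antibody could be compared.

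Neutrophils are short-lived granulocytes that mature in the bone marrow under the cytokine G-CSF, whose receptor is Csf3r, and follow chemokines into inflamed tissue through the receptor Cxcr2. They pack antimicrobial proteins into granules while they mature, and they are known for large amounts of the calcium-binding proteins S100a8 and S100a9. In tumours they can release chemokines and cytokines that draw in further myeloid cells, and in some models they restrain T cells. They hold little RNA, which makes them hard to capture in droplet sequencing.

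The sets held 80, 89, 25, 113, 39 and 50 neutrophils in the order 1 to 6. Their share of all cells was 0.854% in set 1 (interval 0.678 to 1.06), 1.18% in set 2 (0.945 to 1.45), 0.212% in set 3 (0.137 to 0.312), 1.45% in set 4 (1.196 to 1.74), 0.480% in set 5 (0.342 to 0.656) and 0.565% in set 6 (0.419 to 0.744). The intervals cover counting error only. The highest share was 6.85 times the lowest, and the interval of set 3 lay below those of the other 5 sets. The comparison cells were 3744 other myeloid cells, with a mean of at least 1 for Tyrobp and Fcer1g, which encode signalling adaptors of myeloid and NK cells, and the same T cell limit. As a share of neutrophils plus these cells, neutrophils made up 14.7%, 14.9%, 4.04%, 11.3%, 8.26% and 5.49% in sets 1 to 6, so set 3 was again lowest and the spread narrowed to 3.69 times.

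**Figure D1:**
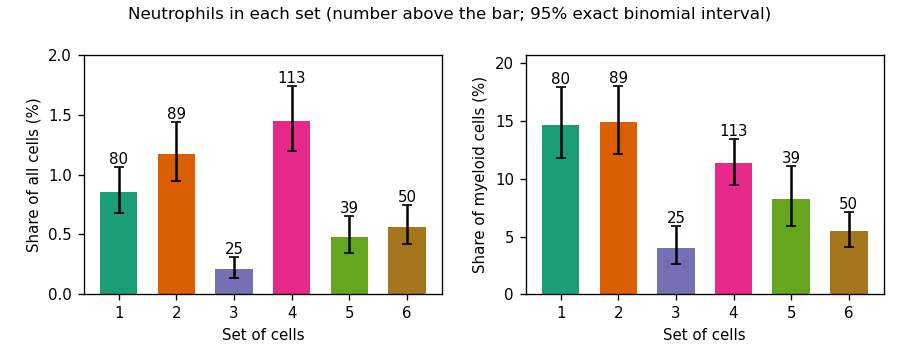
Bars give the neutrophil share of all cells (left) and of myeloid cells (right) in percent for each of the 6 sets, with the number of neutrophils above each bar and error bars for the exact binomial interval of the count. Set 3, with 25 neutrophils, is lowest on both scales, and set 4 is highest on the left while sets 1 and 2 are highest on the right.

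UMIs, the molecules counted, could be recovered for set 1 alone. Its neutrophils had a median of 1303.5 UMIs per cell, from 1004 to 16038, against 2773 in other myeloid cells and 11098.5 over all cells of the set. A median of 123.5 of the 2000 deposited genes was detected per neutrophil, against 183 in other myeloid cells. The doublet caller Scrublet marked 91 set 1 cells (0.971%), of which 0 were neutrophils and 3 other myeloid cells, leaving 80 against 462 cells and 198953 against 1847971 UMIs. Of the 80 neutrophils, 8 held at least 20 UMIs of the liver genes Alb, Afp and Ttr, with a median of 6704 UMIs per cell, against 1249 in the other 72. The part of doublets missed by the caller was not tested.

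The 5 marker genes of neutrophils are all genes of the rule, so they cannot check the label, and their values only describe the cells that were chosen. S100a9 had mean values of 4.22, 4.74, 3.83, 4.69, 4.69 and 4.43 in the neutrophils of sets 1 to 6, and S100a8 had 2.85, 3.43, 2.45, 3.28, 3.16 and 3.07. Other myeloid cells stayed at or below 0.11 for S100a9 and 0.05 for S100a8 in every set. Csf3r was at 2.12, 2.43, 1.27, 2.56, 2.53 and 2.39, and it was the rule gene with the highest level in other myeloid cells, 0.23 to 0.32. Cxcr2 was at 1.90, 2.21, 1.85, 2.20, 2.25 and 1.65, and G0s2, an inhibitor of fat breakdown, at 2.83, 3.15, 2.07, 3.19, 3.48 and 2.96. Retnlg, a resistin-like secreted protein, was weakest, at 0.58, 1.34, 0.79, 1.10, 0.86 and 0.46, and in set 1 it was seen in 23.8% of neutrophils against 93.8% for S100a9. Set 3 was lowest for S100a9, S100a8, G0s2 and Csf3r.

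**Figure D2:**
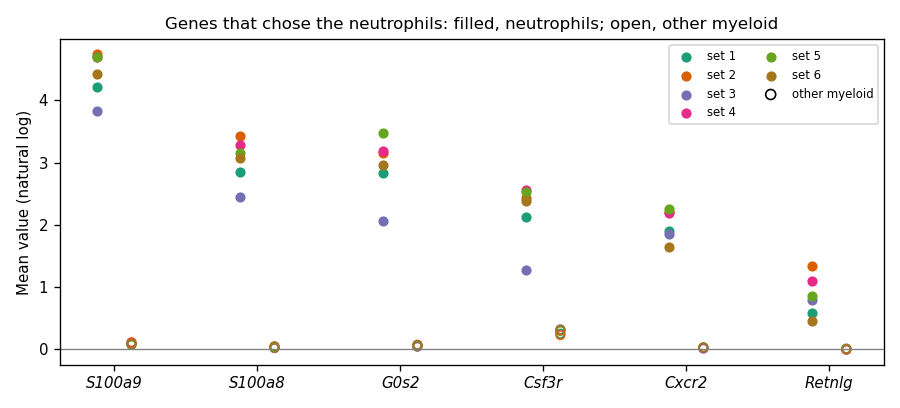
Points give the mean deposited value (natural log) of the 6 genes that chose the neutrophils, for each set in neutrophils (filled) and other myeloid cells (open). S100a9 lies between 3.83 and 4.74 in neutrophils, and Csf3r is the only gene of the 6 whose open points stand visibly above 0, at 0.23 to 0.32.

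The limit of 1.2 cut through a sparse range. The 19 members with a rule mean of up to 0.1 above it had a mean of 1.26, and the 16 cells within 0.1 below it had 1.16. Those inside averaged 1.10 for Cxcr2 and 0.20 for Retnlg, those outside 0.38 and -0.17. The cells outside had the higher mean for S100a9, 2.84 against 2.36, and for Cxcl2, 4.03 against 3.36. Only 46.5% of the neutrophils reached the Tyrobp and Fcer1g limit that the comparison cells had to meet.

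Markers of other cell types were summed in the same cells. In set 1, the 9 mast cell or basophil markers, the 3 endothelial markers, the platelet genes Ppbp and Pf4, and the single eosinophil gene of the table, Ear2, were at 0 UMIs in neutrophils. Dendritic markers were at 0 for 8 of 9, T cell markers for 5 of 8, NK cell markers for 5 of 9 and macrophage markers for 5 of 11, among them Cd163 and Trem2. The T cell list includes Cd3g and Trbc2, which were capped in both classes, so their low values follow from the choice. The macrophage list summed to 1216 CPM (counts scaled to the class's UMI total) against 8474 in other myeloid cells, and 1096 of the 1216 came from Apoe, which stood at 3126 CPM in the liver-gene cells described next. This list includes C1qa, C1qb and C1qc, which the rule capped in neutrophils only, so part of the gap follows from the choice. The 7 monocyte markers summed to 1332 CPM in neutrophils and 1388 in other myeloid cells, 1226 of the 1332 from the fibronectin gene Fn1, which stood at 2294 CPM in the liver-gene cells. The 7 markers of B or plasma cells summed to 20.1 against 71.4 CPM. All 10 hepatoma markers were detected in neutrophils. Apoa2 (5.03 against 10.3 CPM) and Fabp1 (5.03 against 12.4 CPM) were lower than in other myeloid cells. Each rests on 1 UMI in neutrophils, which gives no direction. The other hepatoma markers were higher. The 10 markers summed to 5670 CPM in neutrophils against 2794 in other myeloid cells. Relative to the 5906 set 1 cells with at least 20 UMIs of Alb, Afp and Ttr, called liver-gene cells here, these markers stood at a median of 33.4% in neutrophils (7.34 to 73.2) and 18.5% in other myeloid cells (12.7 to 27.6). The neutrophil range ends at Fabp1 and Serpina1a, at 5.03 and 10.1 CPM, so both ends rest on few UMIs. Fibroblast markers had 50 UMIs, 47 of them in 1 neutrophil. In all 6 sets, the mean over the hepatoma markers ran from 0.62 to 1.15 in neutrophils and from 0.64 to 0.70 in other myeloid cells on the natural log scale.

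The first comparison asked which other genes separated these neutrophils from the rest of the myeloid cells. Higher in every set were the inflammation genes Cxcl2, Il1b, Il1r2, Ptgs2 and Osm, the immediate early genes Egr1 and Ier3, and the neutrophil genes Hdc, Clec4d, Slfn4, Mxd1 and Acod1. Lower in every set were the MHC class II genes Cd74, H2-Ab1, H2-Aa and H2-Eb1 and the lysosomal proteases Ctss, Ctsc, Lgmn and Ctsb. A gene was called where the mean of neutrophils differed from that of other myeloid cells by more than 0.5 natural log units in the same direction in all 6 sets. Of 1987 genes outside the 13 used to choose either class, 27 were called higher (1.36%) and 44 lower (2.21%), and the median difference over all of them was -0.002.

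In set 1 the same cells could be compared by UMIs, as CPM over summed cells with a 95% exact Poisson interval for counting error. There 290 of 1728 genes were at least 2-fold higher (16.8%) and 200 at least 2-fold lower (11.6%) with the interval beyond 1. Of the genes called on the deposited values, 26 of 27 and 41 of 44 were also called by UMIs, which is 8.97% and 20.5% of the longer UMI lists. The exceptions were Tnfaip2, with a log2 fold of 0.90, Hspa1a at -0.57, Hspa1b at -0.90 and H2afz at -0.31. The call on deposited values already required set 1, whose values derive from these same UMIs, so the overlap is no independent check. With each set 1 cell thinned to 1000 UMIs before the log values were formed, the difference kept its sign for 27 of 27 and 44 of 44 genes and passed 0.5 for 26 and 38. Depth in the other 5 sets is unknown.

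Cxcl2, a ligand of Cxcr2 that attracts neutrophils, had the highest median difference outside the rule on the deposited scale, while Il1f9, Hdc, Acod1 and Il1r2 had higher folds by set 1 UMIs. Its mean value was 4.19, 4.78, 3.69, 4.74, 4.77 and 4.61 in the neutrophils of sets 1 to 6, against 1.25, 0.97, 1.17, 1.32, 1.06 and 1.09 in other myeloid cells. The ranges did not overlap, and the median difference was 3.47 natural log units. In set 1 the neutrophils held 2027 UMIs, or 10188 CPM, against 2560 UMIs, or 1385 CPM, a ratio of 7.35 (interval 6.93 to 7.80). After thinning to 1000 UMIs per cell, Cxcl2 was seen in 87.5% of neutrophils, 32.3% of other myeloid cells and 4.89% of the liver-gene cells, a class that should lack it and whose unthinned median was 19824.5 UMIs. As a class the neutrophils thus carried both the receptor Cxcr2, by which they were chosen, and its ligand. Of the 25 chemokine genes in the table, Cxcl2 and Cxcl3 were called higher and Ccl24 and Cxcl9 lower. Cxcl3, another Cxcr2 ligand, differed by 0.93 (0.62 to 1.67 over the sets), with 235 against 299 UMIs and a ratio of 7.30 (6.13 to 8.69).

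Other chemokines followed no single direction on the deposited values, where the median of the list was -0.03. By set 1 UMIs 3 of 23 were called higher and 9 lower, against 16.8% and 11.6% of all genes tested. Ccl3, a ligand of Ccr1, was higher in all 6 sets by 0.26 to 1.17 without passing the call, and its set 1 ratio was 3.54 (2.93 to 4.26). Ccl4 was higher in 4 of 6 sets, from -0.74 to 0.27, and lowest in set 3. Ccl6 was higher in 5 of 6 sets, yet its set 1 ratio was 0.593 (0.486 to 0.719), a log2 fold of -0.75 that became 0.26 after thinning to 1000 UMIs. The monocyte-attracting Ccl2 had 0 UMIs in set 1 neutrophils against 936 in other myeloid cells, and Ccl8 had 0 against 960, which on a floor of 3 UMIs over the class is at least 33.6-fold and 34.5-fold lower. Ccl24, an eosinophil attractant, had 3 against 3390 UMIs, a ratio of 0.00822 (0.00169 to 0.0240), and Cxcl9, which attracts T cells through Cxcr3, had 6 against 1516.

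Of 21 cytokine and inflammation genes, Il1b, Il1r2, Ptgs2 and Osm were called higher and Tgfbi lower, with a list median of 0.01. By set 1 UMIs 7 of 19 were called higher and 1 lower, against 16.8% and 11.6% of all genes tested. Il1b encodes the cytokine IL-1 beta. Its mean was 3.42, 3.73, 3.06, 4.06, 4.18 and 3.79 in neutrophils against 1.68, 1.55, 1.76, 1.92, 1.61 and 2.01 in other myeloid cells, with no overlap, and in set 1 its ratio was 3.27 (3.05 to 3.51). Il1r2, the decoy receptor that binds IL-1 without signalling, was at 2.01, 2.23, 1.55, 2.20, 2.19 and 1.82 against 0.18 to 0.35, and its set 1 ratio was 8.82 (7.10 to 10.9). The receptor antagonist Il1rn was also higher in all 6 sets, by 0.12 to 1.31, but missed the call. So the ligand, its decoy receptor and its antagonist were each above the other myeloid cells in every set. Il1f9, an IL-36 family cytokine outside the list, had a median difference of 1.47, with 79 against 13 UMIs in set 1 and a ratio of 56.4 (31.2 to 111). Ptgs2, the inducible enzyme of prostaglandin synthesis, was at 2.46, 2.41, 1.85, 2.53, 2.73 and 2.87 against 0.46 to 0.73, with a ratio of 5.04 (4.44 to 5.72). Osm, oncostatin M, differed by 1.27 (1.03 to 2.12). Tnf missed the call, with differences from -0.10 to 0.21, while by set 1 UMIs it was called higher, with 23 against 99 UMIs and a ratio of 2.16 (1.31 to 3.42).

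Among early response and regulatory genes, Egr1, an immediate early transcription factor, was at 2.91, 2.81, 2.58, 3.04, 2.94 and 3.18 in neutrophils against 0.82 to 0.94 in other myeloid cells. Its set 1 ratio was 5.40 (4.76 to 6.11), and after thinning it was seen in 77.5% of neutrophils and 25.5% of other myeloid cells, but also in 40.9% of liver-gene cells. Ier3 was at 3.20, 3.31, 2.65, 3.45, 3.62 and 3.45 against 1.31 to 1.55, and it too was frequent in liver-gene cells, 52.5% after thinning. Per UMI, Egr1 and Ier3 in set 1 neutrophils stood at 314% and 332% of their level in those cells. The hepatoma markers ran from 7.34% to 73.2% by the same measure, but both ends, Fabp1 and Serpina1a, were at 10.1 CPM or less. The markers with more UMIs, Alb, Afp, Ttr, Apoa1, Trf, Krt8 and Ahsg, ran from 23.3% to 48.2%. The part of liver RNA in Egr1 and Ier3 was not tested. Other immediate early genes were not higher: Atf3 had a median difference of -0.44 and Fosb of -0.35, both short of the call, with set 1 log2 folds of -1.07 and -0.61. On the deposited values the heat-shock chaperone Hspa1a differed by -1.22 (-1.31 to -0.92) and Hspa1b by -0.97. In set 1 Hspa1a was seen in 6.25% of neutrophils and 45.2% of other myeloid cells, while its ratio of summed UMIs was 0.675 (0.546 to 0.825), and its 102 UMIs lay in 5 neutrophils. The set 1 log2 fold of Hspa1a, -0.57, turned to 0.22 after thinning and 0.13 as a mean of CPM per cell. That of Hspa1b, -0.90, shrank to -0.21 and -0.15. The UMI folds thus give no direction for Hspa1a, while its set 1 difference of mean log values stayed lower, -0.92 before thinning and -0.74 after. Of the 16 genes of the stress and mitochondrial list 1 was called higher and 2 lower, with a median of -0.36.

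**Figure D3:**
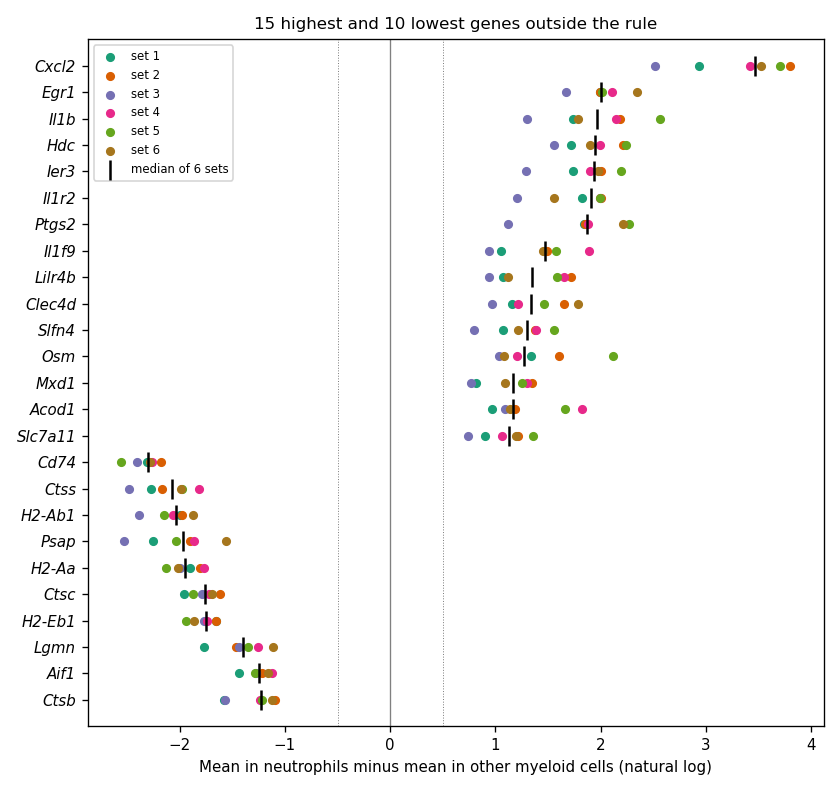
Each point is 1 of 6 sets, placed by the mean in neutrophils minus the mean in other myeloid cells (natural log), for the 15 highest and 10 lowest genes outside the rule, and black bars mark the median. Dotted lines mark 0.5 in each direction, and set 3 gives the lowest point for 14 of the 15 higher genes, with Cxcl2 at 2.52 there and 2.93 to 3.80 in the other sets.

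Genes known from neutrophils but not used to choose them were examined next. Of 20 such genes 7 were called higher and 0 lower, with a median of 0.47: Hdc, Il1r2, Clec4d, Slfn4, Mxd1, Acod1 and Clec4e. Hdc, which makes histamine, was at 1.77, 2.24, 1.59, 2.07, 2.34 and 2.02 against 0.03 to 0.12 in other myeloid cells. It had 143 against 30 UMIs in set 1, a ratio of 44.3 (29.7 to 68.0), while the mast cell and basophil markers were at 0. Clec4d, a lectin receptor, was at 1.41, 1.84, 1.13, 1.62, 1.62 and 2.06 against 0.16 to 0.41. Acod1, the itaconate-producing enzyme, was at 1.02, 1.23, 1.16, 1.95, 1.75 and 1.26 against 0.04 to 0.12, with a ratio of 24.1 (15.8 to 37.4). Slfn4, a Schlafen family gene, and Mxd1, a Myc-network repressor, differed by medians of 1.29 and 1.17. Stfa2l1, a stefin, had 61 UMIs in neutrophils and 0 in other myeloid cells. Of the neutrophil genes that missed the call, Fgl2 was higher in 5 of 6 sets.

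Granule proteins did not move as a group. Of 13 genes Mmp9 was called higher and Lyz2 and Cybb lower, with a list median of 0.15. Mmp9, a gelatinase stored in granules, was at 1.10, 1.51, 0.81, 1.10, 1.12 and 0.74 against at most 0.05 in other myeloid cells, and in set 1 it was seen in 48.8% of neutrophils and 1.95% of other myeloid cells. Lyz2, lysozyme, was at 0.50, 1.00, 0.61, 0.57, 0.54 and 0.58 against 1.66 to 1.87. Cybb, a subunit of the oxidase that makes superoxide, was at 0.12 to 0.32 against 1.40 to 1.48. The UMI comparison called 11 of the 13 higher, against 16.8% of all genes tested, and for several of them single cells carried the sum. Camp, the cathelicidin of the secondary granules, had 1539 UMIs in set 1, all of them in 3 of the 80 neutrophils, with 1053, 268 and 218 each.

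Those 3 neutrophils, picked out after the sums were seen as the cells with at least 10 UMIs of Camp, Ngp and Ltf, differed from the other 77 in most of the genes that describe neutrophils here. They had 16038, 5119 and 3839 UMIs and held 12.6% of all neutrophil UMIs of set 1. They carried 99.1% of the UMIs of Ngp and 97.3% of those of Ltf, the lactoferrin gene, shares that follow from the pick. Of genes not used to pick them, they carried 98.1% of Chil3, 93.5% of Lcn2 and all 12 UMIs of Cebpe, a transcription factor of granule formation. They held 69.6% of S100a8 and 56.7% of S100a9 UMIs. By contrast they held 1 of 2027 UMIs of Cxcl2, 1 of 1056 of Il1b, 2 of 151 of Cxcr2, 1 of 100 of Retnlg, and 0 of 200 and 0 of 73 of Csf3r and Mmp9. Genes of the cell cycle list stood at 5241 CPM in them and 845 in the other 77, and in the single cells at 6173, 4884 and 1823 CPM. A cell among the other 77 stood at 4187 CPM, above the lowest of the 3, so this list does not separate them cell by cell. They met the rule mainly through S100a8 and S100a9.

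**Figure D4:**
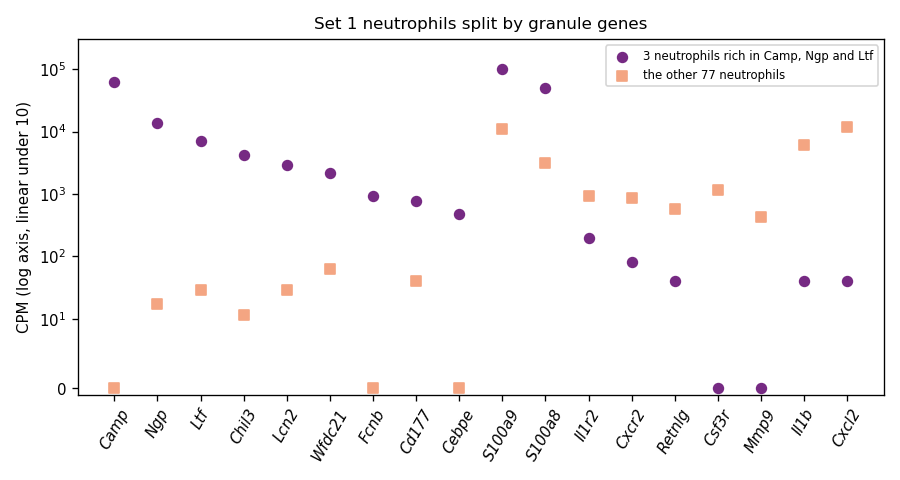
Circles give CPM in the 3 set 1 neutrophils rich in Camp, Ngp and Ltf and squares those in the other 77, on a log axis that is linear under 10. Granule genes from Camp (61570 against 0) to Cebpe (480 against 0) are higher in the 3, S100a9 and S100a8 are also higher, and Cxcl2 (40.0 against 11647), Il1b, Cxcr2, Retnlg, Csf3r and Mmp9 are lower. Camp, Ngp and Ltf picked the cells, so their points describe the pick.

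Cells of the same kind were looked for in the other sets as neutrophils with at least 2 of Camp, Ngp and Ltf above 3 natural log units. There were 3, 0, 1, 0, 0 and 2 in sets 1 to 6, or 6 of 396 (1.52%, exact interval 0.558 to 3.27), and 0 of the 3744 other myeloid cells. Their mean for Cxcl2 was 0.16 in set 1, -0.08 in set 3 and 0.23 in set 6, against 4.34, 3.85 and 4.79 in the remaining neutrophils of those sets. Without the 3 cells of set 1, Camp had 0 UMIs in neutrophils against 3 in other myeloid cells, which gives no direction.

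Immunosuppressive genes were examined because neutrophils of tumours can carry them. Of 13 genes Ptgs2 and Cd14 were called higher and 0 lower, with a median of 0.04. Arg1, the liver-type arginase of suppressive myeloid cells, had 0 UMIs in the set 1 neutrophils against 706 in other myeloid cells, at least 25.3-fold lower on a floor of 3 UMIs over the class, and its mean in neutrophils was at most 0.08 in any set. Arg2, the mitochondrial arginase, went the other way: it was higher in all 6 sets by 0.38 to 0.74, short of the call, and in set 1 it had 42 against 38 UMIs, a ratio of 10.3 (6.46 to 16.4). Nos2 had 0 against 27 UMIs and was called neither by UMIs nor on the deposited values. Cd274, which encodes PD-L1, was at 0.96, 0.81, 0.59, 1.12, 1.40 and 1.203 in neutrophils and 0.57 to 0.76 in other myeloid cells. It was higher in 5 of 6 sets, the ranges overlapped, and its set 1 ratio was 1.74 (1.30 to 2.29). Cd14, the endotoxin co-receptor, was at 1.52, 2.06, 1.82, 1.88, 2.13 and 1.77 against 0.65 to 0.88.

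Hypoxia and glycolysis genes were described beside the liver transcripts, since the hepatoma cells express them as well. Of 15 genes Ero1l and Egln3 were called higher and 0 lower, with a median of 0.04. Ero1l, an oxidase of the endoplasmic reticulum, was at 1.25, 1.36, 1.07, 1.65, 1.31 and 1.55 against 0.40 to 0.54, and Egln3, a prolyl hydroxylase, at 1.16 to 1.28 against 0.39 to 0.51. Per UMI, Ero1l in set 1 neutrophils stood at 426% of its level in liver-gene cells, Egln3 at 129% and the glucose transporter Slc2a3 at 960%, while Bnip3 stood at 83.4%, Ndrg1 at 58.1% and Pgk1 at 65.5%, and Hilpda and Slc2a1 stood at 148% and 141%. In the 72 neutrophils with fewer than 20 UMIs of Alb, Afp and Ttr, Ero1l was at 646 CPM and Egln3 at 454, against 180 and 126 in the matching other myeloid cells. Slc7a11, the cystine transporter, had a median difference of 1.12 and stood at 1076% of its level in liver-gene cells. The part of liver RNA in these genes was not tested.

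Antigen presentation was the list with the clearest lower side. Of 11 genes 0 were called higher and 6 lower, with a median of -0.85. Cd74, the invariant chain of MHC class II, was at 0.34, 0.45, 0.53, 0.30, 0.24 and 0.32 in neutrophils against 2.65, 2.62, 2.94, 2.56, 2.80 and 2.60 in other myeloid cells, and in set 1 it had 30 against 5637 UMIs, a ratio of 0.0494 (0.0333 to 0.0706). H2-Ab1, H2-Aa and H2-Eb1, chains of class II, differed by medians of -2.03, -1.95 and -1.75, with no overlap. Ctss, the protease that trims the invariant chain, was at 0.42 to 0.87 against 2.60 to 2.90. H2-DMa, which loads peptides on class II, differed by -0.85. After thinning, Cd74 was seen in 11.2% of neutrophils, 72.1% of other myeloid cells and 27.3% of liver-gene cells.

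Proteases and matrix genes had no common direction. Among 21 such genes Mmp9 was called higher and Mmp12 and Ctsb lower, with a median of 0.01. By set 1 UMIs 7 were called higher and 5 lower, against 16.8% and 11.6% of all genes tested. Of lysosomal genes, Psap, the saposin precursor, was at 1.51, 1.60, 1.42, 1.60, 1.72 and 1.94 against 3.46 to 3.94, Ctsc differed by -1.76 with 2 against 2436 UMIs, and Lgmn and Ctsb by -1.40 and -1.23. Ctsl, another lysosomal protease, had a median difference of -0.05. Mmp12, the macrophage elastase, had 3 against 3724 UMIs, and Mmp13 had 0 against 1543, at least 55.4-fold lower. Aif1 had 1 against 1435 UMIs. Of 13 lipid genes only Msr1, a scavenger receptor, was called, as lower, with 1 against 516 UMIs.

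Receptors split. Of 24 pattern and Fc receptor genes Lilr4b, Clec4d, Cd14 and Clec4e were called higher and Fcgr2b and Msr1 lower. Clec4e, the lectin Mincle, was higher by 0.57 to 1.205. Of 12 chemoattractant receptors 0 were called higher. Ccr1, a receptor for Ccl3, was higher in all 6 sets by 0.34 to 1.22, and Ptafr, the receptor for platelet-activating factor, by 0.40 to 0.74. Ccr2, the receptor of inflammatory monocytes, had 3 against 616 UMIs and differed by -0.93 to -0.36. Of 27 interferon response genes Slfn4 was called higher and Cxcl9 lower, with a median of -0.07. By set 1 UMIs 2 were called higher and 8 lower, against the same 16.8% and 11.6% of all genes. Rsad2 and Isg15 were higher in all 6 sets without passing, and Ly6a was lower in all 6, also without passing. Of 22 cell cycle genes 0 were called in either direction, with a median of -0.02.

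**Figure D5:**
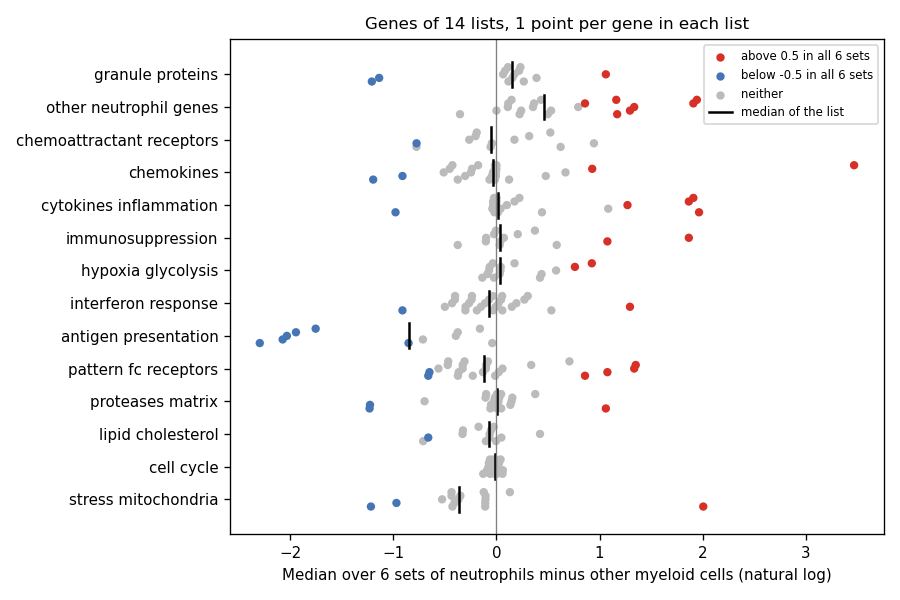
Each point is a gene of 1 of 14 lists, placed by its median over the 6 sets of neutrophils minus other myeloid cells (natural log), red or blue where the difference passed 0.5 in all 6 sets, with a black bar at the list median. Antigen presentation has 6 blue genes of 11 and a bar at -0.85, other neutrophil genes have 7 red of 20 and a bar at 0.47, and the remaining bars lie between -0.36 and 0.15.

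The comparison cells were a mixture, so neutrophils were also set against its parts. Of the 3744 cells 298 (7.96%) carried the NK genes Ncr1, Klrb1c and Klre1, 1710 were high and 1736 low in C1q. Against the C1q-low cells, which share the C1q limit with the neutrophils, 25 genes were called higher (1.26%) and 42 lower (2.11%), and against the C1q-high cells 29 (1.46%) and 62 (3.12%). Of the genes called against all other myeloid cells 23 of 27 and 33 of 44 were also called against the C1q-low cells. Il1b narrowed from 1.97 to 1.40 and Osm from 1.27 to 0.99, while Cxcl2 stayed at 3.43 and Cd74 at -2.31. Among others, Cd14, Clec4e, Lgmn, Cxcl9, Ccl24, Mmp12 and Msr1 were not called against the C1q-low cells. Lower against them were Crip1 at -1.57, Cst3, a protease inhibitor, at -1.38, Ms4a6c at -1.31, S100a4 at -1.25 and Rgs2 at -1.17. Tnfaip2 was called higher, by 0.93, and Samsn1 differed by 0.89 without passing.

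The neutrophils also varied among themselves. Outside the rule the largest SD over cells, as the median over sets, was 1.80 for Ccl4, followed by 1.68 for Ptgs2, 1.67 for Osm, 1.63 for Ccl3, 1.60 for Il1rn and 1.59 for Il1b. In other myeloid cells the same SDs were 1.38, 1.18, 1.06, 0.99, 1.08 and 1.67, so Il1b varied as much there. Across the cells of a set, S100a8 and S100a9 varied together (median r 0.80, 0.69 to 0.88), as did Ccl3 and Ccl4 (0.56, 0.24 to 0.66) and Ccl3 and Il1rn (0.49, 0.11 to 0.72). Ccl3 and Retnlg were negatively related in 6 of 6 sets (median r -0.26). S100a8, S100a9 and Retnlg are rule genes, so their correlations also reflect the choice of cells. All these correlations describe cells that share library and depth.

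Across sets the neutrophil means of G0s2 (2.07 to 3.48), Csf3r (1.27 to 2.56), Il1rn (0.91 to 2.12), Fgl2 (0.89 to 2.03) and Ptprc, the pan-leukocyte gene CD45 (0.62 to 1.74), had the widest ranges. All 5 were lowest in set 3, which has 25 neutrophils and the lowest mean over the rule genes, 2.04 against 2.42 to 2.88 elsewhere. In other myeloid cells the same genes varied by at most 0.18 between sets. G0s2 and Csf3r are rule genes, so their range also reflects the choice of cells. Without set 3, 33 genes were called higher and 51 lower, counts that leaving out a set can only keep or raise.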

How the data were processed

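Per the labels' protocols, cells of dissociated tumours went through DNBelab C4 droplet libraries of 3′ transcript ends. The protocols name STAR 2.7.2b for alignment, PISA for UMI counting and barcodeRanks of DropletUtils for cell selection. The series text names the genome GRCh38 and the submitters' processing notes GRCh38 and mm10, while 1984 of the 2000 gene symbols were found in GENCODE M21 mouse annotation. The build behind the table is therefore not known and no coordinates are given. The deposited table holds values on the natural log scale, made by the authors: in set 1, whose values are never below 0, each is the natural log of 1 plus UMIs per 10000, and totals were recovered for 100% of cells, with 100% of values whole within 0.01. In sets 2 to 6 values below 0 occur and the step behind them is recorded in no label, so their natural log scale is assumed. Nothing maps the 53528 columns to a sample, so the sets are unassigned, and cells are not replicates: no p-value was computed. Each group's cDNA and oligo entries count as 1 sample. Cell names hold serial numbers, so barcodes shared between libraries could not be counted.

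Computed here were means per class and set, their differences, and in set 1 CPM with a pseudocount of 1 for log2 folds, exact conditional Poisson and Clopper-Pearson intervals at 95%, and shares after thinning to 1000 UMIs, which left out no cell. Intervals cover counting error only. Soat1 and genes outside the 2000 are not analysed here. Some results are not reported here. Named genes were the rule genes, the 15 highest and 10 lowest differences with 1 sign in every set, up to 4 genes per list by size of difference, 5 highest and 5 lowest against C1q-low cells, the 8 most variable, the 5 with the widest range over sets, and a set of known neutrophil and suppressor genes. Other genes named were chosen after their values were seen. The members and lists were chosen with earlier results of these data known. Alternatives to the limits, the call, the comparison cells and the counting were tried, some added after the data were seen. Ratios and total recovery were tested on simulated data. Doublets were called in set 1 by Scrublet (scanpy 1.11.5, expected rate 6%) with Python 3.11.15, numpy 2.4.6, scipy 1.17.1 and pandas 2.3.3.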

Additional observations from a re-analysis of the deposited data

Results flagged for a closer look

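Of 40 differences examined over the 6 sets (neutrophils minus other myeloid cells on the natural log scale), 2 had a set far from the others, and chance gives about 1 in 20. For Csf3r the lowest difference was 0.953 in set 3, with 1.87 next, a gap of 0.702 of the whole range. Csf3r is one of the genes that chose the neutrophils, so this value describes the choice of cells and is no independent sign. For Ptgs2 it was 1.12 in set 3, with 1.84 next, a gap of 0.626 of the range. Both sets of values include the 25 neutrophils of set 3, the fewest of any set. The part of the small number of cells in these values was not tested.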

How the results depend on the processing

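The neutrophil share of all cells, 0.740%, was 0.822% with the rule limit at 1.0, 0.643% at 1.5 and, with myeloid cells as the denominator, 9.57%. The 27 genes called higher on the deposited values were 13 with medians over cells in place of means, 47 with the call at 0.25 and 8 with it at 1, and the 44 called lower were 29, 92 and 13 in the same order. Leaving out 1 set at a time gave 27 to 33 higher and 44 to 51 lower. Since a call needs every set, leaving 1 out can only keep or add genes, so these counts could not fall. The 290 genes called higher by set 1 UMIs were 172 after thinning to 1000 UMIs and 163 when a UMI was required in 10% of the cells of the higher class. Camp went from 11.53 to -1.39 on the log2 scale without the 3 granule-gene cells, a value set by the pseudocount, since 0 of its UMIs were left. Among 84 named genes, 10 set 1 folds (Camp and, not called by UMIs, Hspa1a, Fgl2, Ccl6, Ptprc, Pcna, Stmn1, Top2a, Birc5 and Clec4n) and 5 median differences, none of a called gene, changed sign under some alternative. Among named genes, 405 of 504 alternative median differences and 593 of 756 alternative set 1 folds moved by less than their spread, and of the 14 list medians 13 did against C1q-low cells. Depth limits all values: set 1 neutrophils had 198953 UMIs in total, and the depth of the other sets is unknown. No paired analysis was possible because no cell is tied to a group; cell classes were compared within each set.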

Other observations

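Some genes outside the lists also passed the call. Lamb3, a laminin chain, was higher in neutrophils in all 6 sets, by 0.54 to 0.79 natural log units, with 40 against 25 UMIs in set 1 and a ratio of 14.9 (8.80 to 25.6). It stood at 520% of its level per UMI in liver-gene cells. Marcksl1, an actin-binding protein, differed by 0.68 and was seen after thinning in 23.8% of neutrophils, 3.68% of other myeloid cells and 0.102% of liver-gene cells. Cd24a, a surface glycoprotein, differed by 0.62, but liver-gene cells carried it too, in 17.8% after thinning against 30.0% of neutrophils. Srgn, the granule proteoglycan serglycin, differed by 1.11 (0.65 to 1.27) and was seen after thinning in 83.8% of set 1 neutrophils and 56.5% of other myeloid cells.

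On the lower side, Irf8, a transcription factor of monocytes and dendritic cells, differed by -0.82 (-0.95 to -0.71), with 7 against 767 UMIs in set 1. Cyba, the partner of Cybb in the superoxide-producing oxidase, differed by -1.04. Laptm5, a lysosomal membrane protein, differed by -1.13, with a set 1 ratio of 0.272 (0.211 to 0.346). These genes were chosen after their values were seen.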
